A study of Bos taurus with 16 samples.

Results

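The comparison concerns the farm of origin within the Lidia breed, cattle bred for aggressive reactions in the bullring. Among the 16 bulls of the series, 8 were Lidia and 8 were Wagyu, a breed selected for beef and handled as the docile cohort. The Wagyu bulls were all aged 3 years and were sampled at a slaughterhouse, whereas the Lidia bulls were sampled at the bullring. The Lidia bulls were 4 from the farm La Quinta (animals Agg_8312, Agg_8314, Agg_8320 and Agg_8324) and 4 from the farm Montealto (animals Agg_8162, Agg_8165, Agg_8171 and Agg_8174). The sample labels do not name the farm, so the farm of each bull was taken from the study's description of the animals by the number in its title. All 8 were non-castrated males labelled aggressive, aged 3 years except Montealto Agg_8174 at 4 years, and all were incited and scored for their behavior before the bullring event. They were picked by their breeders as elite animals for that behavior, so neither farm is a docile control for the other. The study describes the farms as 2 batches of the Lidia group, and the farm cannot be told apart from lineage, rearing, feed or the event at which its bulls were sampled. No gene or value of the data was used to form the groups.

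The prefrontal cortex (PFC) is the part of the frontal lobe that holds back and directs behavior, and its output neurons signal by glutamate under the control of local GABA-releasing interneurons. Its RNA also comes from astrocytes, from oligodendrocytes that make myelin, from microglia, from vessels and, at the surface, from the meninges. Genes of the stress, heat shock, interferon and activity-dependent responses can change within hours of an event. Bulk RNA was sequenced, so fewer cells of a type and less RNA per cell cannot be told apart.

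Each bull gave 1 library of right dorsal PFC, and the deposited values are FPKM, that is, fragment counts divided by transcript length and by sequencing depth, which allow levels to be compared between genes. The values of 43984 transcripts were summed to 27607 genes, and each bull was then rescaled by its median ratio to the geometric mean of the 8 bulls, giving the rescaled FPKM used throughout. The deposited coverage corresponds to 13.7 to 34.8 M fragments per bull (M, 10 to the power 6) at 200 bases per fragment. La Quinta Agg_8324 had the fewest fragments and the largest scaling factor (1.81). Montealto Agg_8165 stood apart from the other 7 bulls: it had 20 M fragments and the highest mitochondrial share of FPKM (38.4%, against 22.2 to 33.2% in the others), and its median correlation with the bulls of its own farm was 0.90, against 0.94 to 0.96 for the others. No difference between the farms was detected in fragments, scaling factor, mitochondrial share or the number of genes above 1 FPKM by the exact two-sided permutation test, with an adjusted p of 0.714 for each of the 4 values and a smallest possible p of 0.0286. For the mitochondrial share the means were 26.7% ± 3.77 (SD, n = 4) in La Quinta and 31.6% ± 5.29 (SD, n = 4) in Montealto.

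The defining markers of cerebral cortex were present in all 8 bulls. SLC17A7, the vesicular glutamate transporter of cortical excitatory neurons, was at 98.0 to 145 FPKM in La Quinta and 94.9 to 139 FPKM in Montealto. The astrocyte filament gene GFAP was at 187 to 244 FPKM and 197 to 292 FPKM. Gene symbols could be assigned only to genes on the study's own list of breed differences, which was chosen on these animals. Of the genes tested, 1099 therefore have a symbol and the others appear under their Ensembl identifiers on the ARS-UCD 1.2 assembly.

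Few genes passed the test for a difference in PFC between the 2 farms, and a gene that did not pass may still differ. Of 16546 genes tested with limma on the log2(FPKM + 0.1) scale, 7 passed a Benjamini-Hochberg adjusted p of 0.05, which is 0.0423% of genes. Of these, 2 were higher in La Quinta (0.0121%) and 5 were lower (0.0302%). A pair of the 5 lower genes had equal values in every bull, so the 7 genes hold 6 distinct sets of values. Only 2 of the 7 have a symbol: GSTA3, a glutathione transferase that rose in La Quinta, and TTR, the carrier protein transthyretin, which fell. Over all these genes the log2 fold change had a median of -0.01, with the middle of the distribution between -0.18 and 0.15. An unadjusted p under 0.05 was found for 678 genes, or 4.1%, which is under the share that this threshold gives where no gene differs. This count depended on single bulls. It was 1058 genes (6.39%, over that share) without Montealto Agg_8165 and 482 genes without La Quinta Agg_8324. Without both bulls it was 807 genes (4.9%), and with lower weights for bulls that depart from the fit it was 1639 genes. On the FPKM as deposited, with no rescaling between bulls, that median moved to 0.32, and 5 genes were called higher and 5 lower, including all 7. Directions of gene lists below are relative to the median of all genes, and list values that are small beside this shift change sign on the deposited scale. Apart from the mitochondrial genes, list members have symbols and so stand on the study's list. Of its tested genes higher in Lidia, 2.49% were higher and 4.98% lower in La Quinta at an unadjusted p under 0.05. For its genes lower in Lidia the shares were 1.48% and 4.06%. Shares of all genes given below are thus an unlike background, and matching shares with bulls left out were not computed. In 585 genes, or 3.54%, the 4 bulls of one farm all lay on one side of the 4 bulls of the other. The spread between bulls set the precision: the median SD of a gene on the log2 scale was 0.213 in La Quinta and 0.353 in Montealto, and 0.175 in Montealto without bull Agg_8165.

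**Figure D1:**
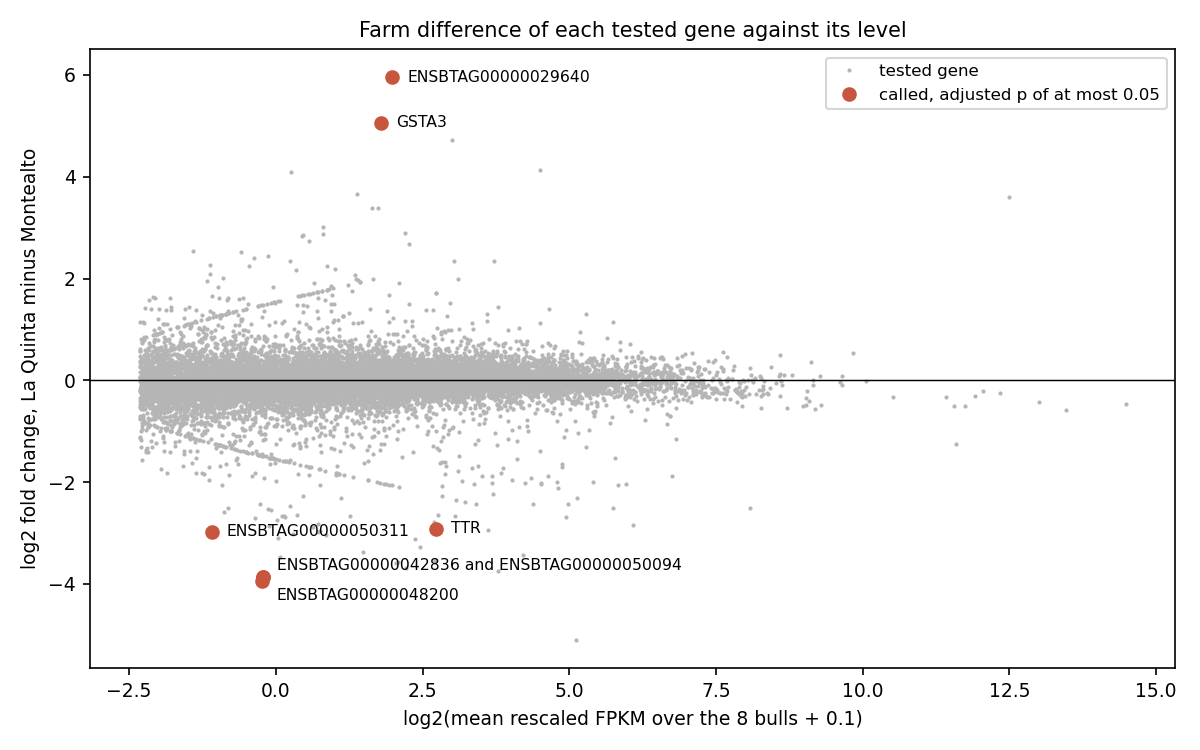
Each point is 1 of the 16546 tested genes. The x axis gives its level as log2 of the mean rescaled FPKM over the 8 bulls plus 0.1, and the y axis its log2 fold change, La Quinta minus Montealto. The 7 called genes are in red, 2 above and 5 below the line at 0, and many grey points with equally large fold changes were not called. For called genes listed at 0 in a whole farm the height of the point depends on the added 0.1.

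GSTA3 encodes an alpha-class glutathione transferase, which joins glutathione to reactive compounds and whose human counterpart also takes part in steroid hormone synthesis. The gene lies on chromosome 23 (25182280 to 25204322, minus strand) and has 1 transcript in the files. In La Quinta it was at 6.86, 4.65, 10.3 and 4.64 FPKM in bulls Agg_8312, Agg_8314, Agg_8320 and Agg_8324. Montealto bulls Agg_8162, Agg_8171 and Agg_8174 had 0.187, 0.197 and 0.055 FPKM, and in bull Agg_8165 the gene was listed at 0. The farms were thus far apart, every La Quinta bull being above 4 FPKM and every Montealto bull under 0.2 FPKM, with 105 to 240 estimated fragments behind each La Quinta value and at most 6.5 behind each Montealto value. The log2 fold change was 5.06 ± 0.41 (SE; limma, adjusted p = 0.00709). The 8 Wagyu bulls had 0.03 to 0.374 FPKM with a median of 0.068, so that the high level was seen in La Quinta and in neither of the other groups. The gene stands on the study's list of genes higher in Lidia, which was chosen on these animals. Without bull Agg_8312 the adjusted p was 0.051, just over the threshold, although the log2 fold change hardly moved, at 5.01. The value of bull Agg_8312 itself was within the range of the other La Quinta bulls. The call also depended on the handling of low values, since a pseudocount of 0.01 gave a fold change of 6.45 on the log2 scale with an adjusted p of 0.0987.

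None of the other 7 tested glutathione transferases was called. GSTA2, the neighbor of GSTA3 in the same alpha-class cluster, was at 0.01 to 0.77 FPKM in La Quinta and 0.11 to 2.52 FPKM in Montealto, with its highest value in Montealto bull Agg_8162. GSTM3, the mu-class member with the highest level here, was at 80.6 to 98.4 FPKM in La Quinta and 67.9 to 143 FPKM in Montealto. The pi-class GSTP1 was at 24.6 to 46.0 FPKM and 27.9 to 75.7 FPKM, also overlapping. Of the 8 tested members, 2 had a positive and 6 a negative log2 fold change, and their median was -0.08, against 0.04 with 4 of each sign without Montealto Agg_8165. Alpha-class genes are near-identical in sequence, so the division of reads among GSTA3 and its copies is uncertain. Within 250 kb of GSTA3, 1 of 9 tested genes had an unadjusted p under 0.05, ENSBTAG00000005206, which was at 20.2 to 26.8 FPKM in La Quinta and 15.1 to 18 FPKM in Montealto and was not called.

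TTR encodes transthyretin, which carries thyroid hormone and retinol-binding protein in blood and cerebrospinal fluid and in the brain is made mainly by the choroid plexus. It lies on chromosome 24 (25544097 to 25553148, minus strand). La Quinta bulls Agg_8312, Agg_8314, Agg_8320 and Agg_8324 had 1.36, 1.03, 1.74 and 1.48 FPKM. Montealto bulls Agg_8162, Agg_8165, Agg_8171 and Agg_8174 had 11.5, 18.5, 9.52 and 7.42 FPKM. The 4 La Quinta bulls were close together and all below the lowest Montealto bull, the means being 1.40 ± 0.29 and 11.7 ± 4.79 FPKM (SD, n = 4 each). The log2 fold change was -2.92 ± 0.28 (SE; limma, adjusted p = 0.00934). Wagyu bulls ranged from 0.152 to 9.23 FPKM with a median of 3.33, which spans the gap between the farms. TTR also stands on the study's list of genes higher in Lidia, yet in La Quinta it was within the Wagyu range. The call was lost without La Quinta Agg_8312 (adjusted p = 0.0786), La Quinta Agg_8314 (adjusted p = 0.0508) or Montealto Agg_8162 (adjusted p = 0.0548), with fold changes between -2.91 and -2.79 on the log2 scale. Without Montealto Agg_8165, the bull with the highest value, the log2 fold change was -2.68 and the adjusted p 0.00668.

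Beside TTR, 1 other marker of choroid plexus epithelium had a symbol and was tested, SLC13A5, a citrate transporter. It was at 2.29 to 3.15 FPKM in La Quinta and 1.35 to 4.49 FPKM in Montealto, so the farms overlapped. The other 4 markers on that list have no symbol here, and the part of choroid plexus tissue in the TTR values was not tested. With the summed leptomeningeal markers as a covariate the log2 fold change of TTR was -2.89 and the adjusted p 0.05, just over the threshold. None of the 3 tested neighbors of TTR within 250 kb had an unadjusted p under 0.05.

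**Figure D2:**
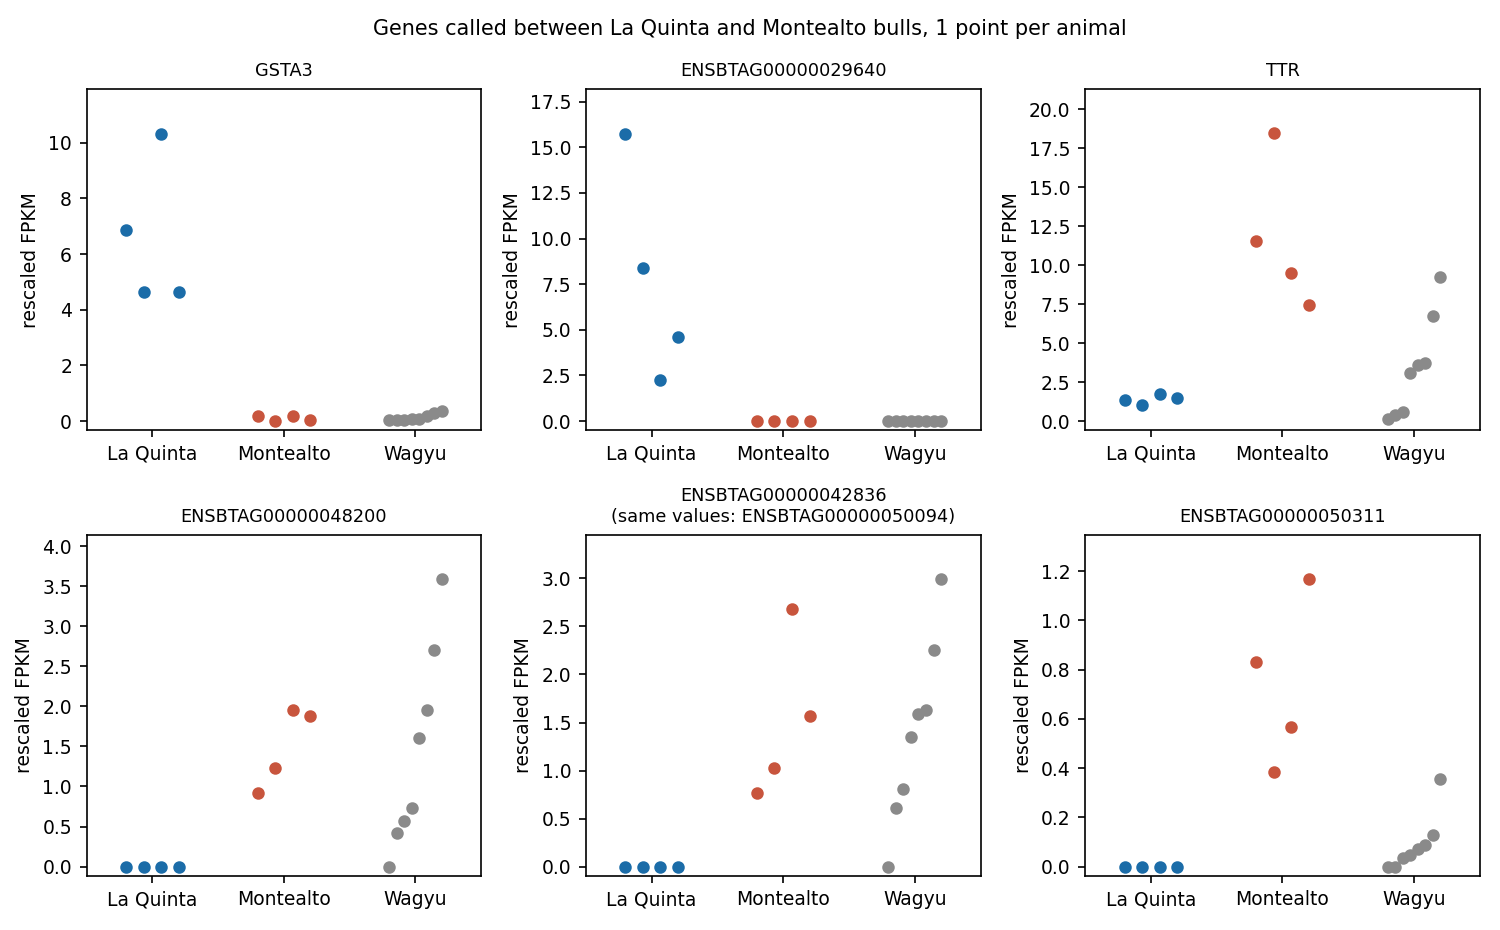
Rescaled FPKM of the called genes, with 1 point per animal for the 4 La Quinta, 4 Montealto and 8 Wagyu bulls; the vertical axes are linear and differ between panels. GSTA3 and ENSBTAG00000029640 are high in La Quinta only, while TTR is low in La Quinta and spread over the Wagyu bulls. The other 4 genes (3 panels) are listed at 0 in every La Quinta bull.

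The other 5 called genes were listed at 0 in every bull of one farm, and none has a symbol. ENSBTAG00000029640 on chromosome 18 (14823839 to 14823992) was at 15.7, 8.37, 2.23 and 4.60 FPKM in La Quinta bulls Agg_8312, Agg_8314, Agg_8320 and Agg_8324 (limma, adjusted p = 0.00709). It was listed at 0 in all 4 Montealto and all 8 Wagyu bulls, so among the 3 groups it was detected in La Quinta alone. Its single transcript has 154 bases, and the deposited coverage corresponds to 8.8 to 70.1 fragments per La Quinta bull.

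ENSBTAG00000048200 on chromosome 1 (129418733 to 129418862), whose transcript has 130 bases, was listed at 0 in La Quinta and was at 0.921, 1.23, 1.95 and 1.88 FPKM in Montealto bulls Agg_8162, Agg_8165, Agg_8171 and Agg_8174 (limma, adjusted p = 0.0028). These Montealto values rest on 2 to 8.3 estimated fragments per bull. Wagyu bulls ranged from 0 to 3.59 FPKM, so the 0 in La Quinta was shared by at least 1 Wagyu bull. ENSBTAG00000042836 on chromosome 19 and ENSBTAG00000050094 on chromosome 14 had the same value as each other in every bull, namely 0 in La Quinta and 0.768, 1.03, 2.68 and 1.56 FPKM in Montealto bulls Agg_8162, Agg_8165, Agg_8171 and Agg_8174 (limma, adjusted p = 0.00709 each). Each has a transcript of 135 bases, and 1.7 to 11.9 estimated fragments stood behind each Montealto value. The pair is counted as 2 genes throughout but is a single observation, and the sequences of the loci were not compared. A further transcript of 135 bases, ENSBTAG00000042135, had the same values in Montealto bulls Agg_8165, Agg_8171 and Agg_8174 but was at 1.04 FPKM in La Quinta Agg_8324, and it was not called (limma, adjusted p = 0.905).

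ENSBTAG00000050311 on chromosome 3 (119733372 to 119736703), with a transcript of 1458 bases, was listed at 0 in La Quinta and was at 0.83, 0.386, 0.566 and 1.17 FPKM in Montealto bulls Agg_8162, Agg_8165, Agg_8171 and Agg_8174 (limma, adjusted p = 0.0179). Between 7.1 and 46.5 estimated fragments stood behind each Montealto value. The Wagyu bulls had 0 to 0.357 FPKM with a median of 0.058, below every Montealto bull. The gene is on the study's list of genes higher in Lidia, which was chosen on these animals. Its call was lost without any 1 of the 4 La Quinta bulls and without Montealto Agg_8162 or Agg_8171 (adjusted p = 0.0746 to 0.105). Of its 13 tested neighbors within 250 kb, 2 had non-overlapping farms: ENSBTAG00000049314 was lower in La Quinta and ENSBTAG00000051719 higher, and neither was called.

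Short transcripts and values of 0 limit these calls. Genes whose longest transcript is under 200 bases made up 2.57% of the tested genes but 4 of the 7 called genes (3 of the 6 distinct sets of values), and they made up 67 of the 106 genes whose log2 fold change was 2 or more in either direction. A transcript shorter than a sequenced fragment offers few positions for reads, and its FPKM then moves with single fragments. A listed 0 need not mean absence: ENSBTAG00000043550, a gene of 1140 bases on the mitochondrial chromosome, was at 3868 to 11040 FPKM in 7 bulls and listed at 0 in Montealto Agg_8162. In all, 5 tested genes were listed at 0 in every La Quinta bull and above 0 in every Montealto bull, and 2 genes the reverse.

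At the level of transcripts, 23404 were tested and 6 were called (0.0256%), while 910 (3.89%) had an unadjusted p under 0.05 and 752 (3.21%) had separate farms. All 6 belong to called genes, and the transcript of ENSBTAG00000050311 missed the threshold (limma, adjusted p = 0.0705). No transcript was called in a gene that was not. The number of called transcripts was 16 without Montealto Agg_8165, 3 without La Quinta Agg_8320 and 0 without any 1 of La Quinta Agg_8312, La Quinta Agg_8314, La Quinta Agg_8324 and Montealto Agg_8171, so it was less stable than the count of genes.

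The count of called genes also moved with single bulls and with the test. It was 2 without La Quinta Agg_8312, 5 without La Quinta Agg_8314 or Montealto Agg_8162 and 9 without Montealto Agg_8165. Lowering the weight of bulls that depart from the fit gave 24 called genes, 10 higher and 14 lower in La Quinta, which include all 7. Leaving out La Quinta Agg_8324 and Montealto Agg_8165 together, an alternative chosen after seeing the data, gave 13, again with all 7. With limma-voom on fragments estimated from the coverage, 0 genes were called, against 698 at an unadjusted p under 0.05. GSTA3 kept its call in 18 of 21 alternatives, TTR in 16 of 21, ENSBTAG00000029640 in 19 of 21 and ENSBTAG00000048200 in 19 of 20. ENSBTAG00000042836 and ENSBTAG00000050094 kept theirs in 17 of 20, losing it without La Quinta Agg_8312 (adjusted p = 0.0529), and ENSBTAG00000050311 was the least stable, at 11 of 20. For genes at 0 in a whole farm these counts say little, since many alternatives reuse the same values, with no spread in that farm. With limma-voom the adjusted p was 0.638 for ENSBTAG00000029640, 0.415 for ENSBTAG00000048200, 0.472 for the pair and 0.0889 for ENSBTAG00000050311. For GSTA3 and TTR it was 0.0889 and 0.0873.

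The gene closest to the threshold was AK8, an adenylate kinase that interconverts adenine nucleotides. La Quinta bulls Agg_8312, Agg_8314, Agg_8320 and Agg_8324 had 0.604, 0.535, 0.403 and 0.319 FPKM. Montealto bulls Agg_8162, Agg_8165, Agg_8171 and Agg_8174 had 2.08, 1.48, 2.5 and 1.67 FPKM. The farms did not overlap, and the log2 fold change was -1.85 ± 0.23 (SE; limma, adjusted p = 0.0521). The Wagyu bulls had 1.44 to 2.17 FPKM, so that Montealto and Wagyu overlapped and La Quinta lay below both. Upper-quartile rescaling called it (adjusted p = 0.047), as did lower weights for departing bulls (adjusted p = 0.00656), and no other alternative did. Of its 3 listed transcripts, the one of 2174 bases was at 0 to 0.604 FPKM in La Quinta and 1.12 to 1.89 FPKM in Montealto, and the one of 2042 bases overlapped between the farms.

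Genes induced by interferon, the antiviral signal, gave the next group of named genes with higher values in La Quinta. IFI27, a mitochondrial protein gene induced by type I interferon, was at 8.92, 6.90, 12.7 and 11.2 FPKM in La Quinta bulls Agg_8312, Agg_8314, Agg_8320 and Agg_8324 and at 5.06, 3.66, 1.82 and 1.98 FPKM in Montealto bulls Agg_8162, Agg_8165, Agg_8171 and Agg_8174. Its farms did not overlap, with a log2 fold change of 1.72 ± 0.34, but it missed the threshold (SE; limma, adjusted p = 0.441). OAS1X, one of the bovine oligoadenylate synthetases that activate RNA decay, was at 2.12, 2.78, 3.12 and 2.96 FPKM in La Quinta and 0.261, 0.304, 1.47 and 1.55 FPKM in Montealto, in the same order of bulls, and also missed it (limma, adjusted p = 0.949). OAS1X and OAS1Y are close copies, so their shares of the reads are uncertain.

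MX1, a GTPase that blocks viral replication, was at 4.34 to 6.90 FPKM in La Quinta. In Montealto it was at 5.38 FPKM in bull Agg_8162 and at 1.46 to 1.73 FPKM in the other 3, so 1 Montealto bull was at the La Quinta level. OAS1Y showed the same arrangement, with 4.96 FPKM in Montealto Agg_8162, 1.54 to 1.76 FPKM in the other Montealto bulls and 3.17 to 5.53 FPKM in La Quinta. In the whole list, 3 of the 11 tested members (IFI27, OAS1X and MX1) had an unadjusted p under 0.05 and were higher in La Quinta, against 1.98% of all genes, and 0 were called. All 11 members stand on the study's list of genes higher in Lidia, where the share was 2.49%. Their median log2 fold change was 0.36, 8 members having positive and 3 (IFITM3, GBP5 and STING1) negative values. The summed level was 29.2 to 42.5 FPKM in La Quinta and 15.2 to 31.6 FPKM in Montealto, so the farms overlapped. Without Montealto Agg_8165 the same count was 4 of 11, against 3.43% of all genes, and without it and La Quinta Agg_8324 it was 3 of 11, against 2.66%.

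Heat shock genes split in direction. HSPA1A, the inducible HSP70 chaperone, was at 17.4, 37.8, 24.5 and 32.3 FPKM in La Quinta bulls Agg_8312, Agg_8314, Agg_8320 and Agg_8324. In Montealto bulls Agg_8162, Agg_8165, Agg_8171 and Agg_8174 it was at 87.5, 118, 47.5 and 74.0 FPKM. Every Montealto bull lay above every La Quinta bull, and also above the 8 Wagyu bulls, which had 7.86 to 36.7 FPKM. The log2 fold change was -1.53 ± 0.32 and missed the threshold (SE; limma, adjusted p = 0.515). HSPH1, a co-chaperone of HSP70, was arranged the other way, at 32.9 to 40.8 FPKM in La Quinta and 20.2 to 30.8 FPKM in Montealto (log2 fold change 0.44 ± 0.16, SE; limma, adjusted p = 0.949). DNAJA1, an HSP40 co-chaperone, was at 16.6 to 23.0 FPKM and 8.26 to 16.8 FPKM. The 5 tested members had a median log2 fold change of 0.10, with 1 member at an unadjusted p under 0.05 in each direction and 0 called, and without Montealto Agg_8165 the median was 0.19 with the same counts. HSPA1A has near-identical copies in mammals, so its value may hold reads of more than 1 gene.

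**Figure D3:**
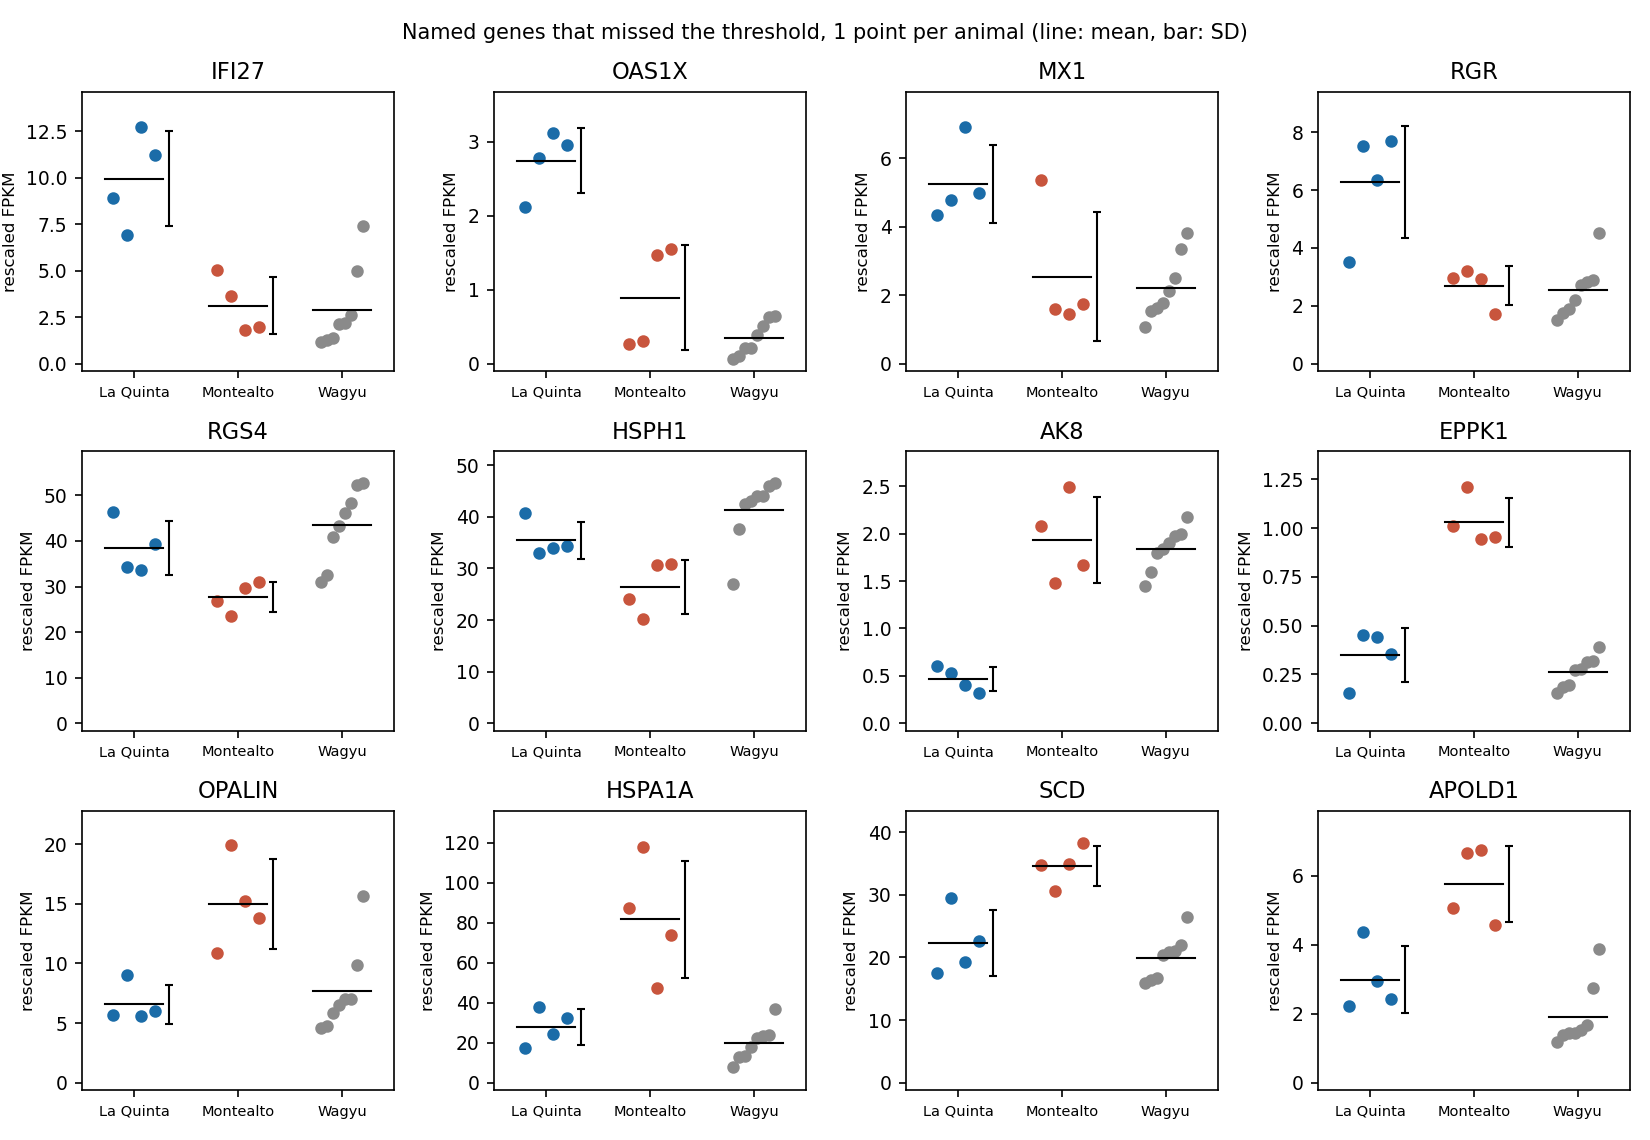
Rescaled FPKM of 12 named genes that missed the threshold, with 1 point per animal, a line at the group mean and, for the farms, a bar of 1 SD; axes are linear, start at 0 and differ between panels. The farms are separate in each panel except MX1, where Montealto Agg_8162 lies among the La Quinta bulls. AK8 in Montealto overlaps Wagyu, while EPPK1, HSPA1A, SCD and APOLD1 in Montealto lie above all 8 Wagyu bulls.

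Genes of oligodendrocytes, the myelin-forming cells, had lower values in La Quinta without reaching a call. OPALIN, a myelin-associated membrane protein, was at 5.67, 9.03, 5.58 and 6.04 FPKM in La Quinta bulls Agg_8312, Agg_8314, Agg_8320 and Agg_8324 and at 10.9, 19.9, 15.2 and 13.8 FPKM in Montealto bulls Agg_8162, Agg_8165, Agg_8171 and Agg_8174. Its farms did not overlap, and the log2 fold change was -1.17 ± 0.22 (SE; limma, adjusted p = 0.441). SOX10, a transcription factor of the lineage, was at 5.43 to 8.21 FPKM in La Quinta and 7.72 to 15.5 FPKM in Montealto. OLIG1, another such factor, was at 17.3 to 22.3 FPKM and 23.1 to 53.5 FPKM, without overlap, whereas OLIG2 was at 3.85 to 4.78 FPKM and 3.83 to 5.11 FPKM. Of the 14 tested markers 13 had negative log2 fold changes, with a median of -0.54, and 3 had an unadjusted p under 0.05 and were lower, against 2.12% of all genes. All 14 stand on the study's list of genes higher in Lidia, where the share was 4.98%. The summed level was 163 to 235 FPKM in La Quinta and 228 to 235 FPKM in 3 Montealto bulls, against 521 FPKM in Montealto Agg_8165. Without bull Agg_8165 the median was -0.28 with 3 of 14 members lower at an unadjusted p under 0.05, against 2.96% of all genes, and without it and La Quinta Agg_8324 it was -0.28 with 2 of 14, against 2.24%.

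Several genes of vessel walls were arranged like OPALIN. FLT1, a receptor for vascular endothelial growth factor whose entry shares its locus with another gene, was at 3.24 to 3.86 FPKM in La Quinta and 4.37 to 5.04 FPKM in Montealto. DLL4, an endothelial Notch ligand, was at 0.572 to 0.897 FPKM and 0.99 to 1.93 FPKM. APOLD1, an early response gene of endothelium, was at 2.21 to 4.37 FPKM and 4.58 to 6.76 FPKM. All 3 missed the threshold (limma, adjusted p = 0.917, 0.949 and 0.796). The endothelial marker list as a whole was mixed and moved with single bulls: 4 of 11 members had positive and 7 negative log2 fold changes, and CLDN5, a tight junction protein, was at 23.6 to 31.1 FPKM in La Quinta and at 21.3 to 26.1 FPKM in all Montealto bulls but Agg_8165, which had 96.0 FPKM. The median of the list was -0.26, but 0.00 without bull Agg_8165 (6 positive, 5 negative) and -0.37 without bull Agg_8174 (1 positive, 10 negative). The mural cell markers NOTCH3 and PDGFRB overlapped between the farms, and 0 of 6 members had an unadjusted p under 0.05.

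Other named genes with separate farms also missed the threshold. EPPK1, an epiplakin that binds intermediate filaments, was at 0.156 to 0.452 FPKM in La Quinta and 0.942 to 1.21 FPKM in Montealto (log2 fold change -1.38 ± 0.26, SE; limma, adjusted p = 0.441). The 8 Wagyu bulls, at 0.154 to 0.392 FPKM, lay with La Quinta. OTOF, the calcium sensor otoferlin of vesicle fusion, was at 2.25 to 2.66 FPKM in La Quinta and 3.29 to 3.87 FPKM in Montealto (limma, adjusted p = 0.51). EFS, a docking protein of Src-family kinases, was at 1.74 to 1.84 FPKM and 2.29 to 3.50 FPKM.

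Higher in La Quinta, but not called, were RGR, RGS4 and TAFA2. RGR, an opsin that binds all-trans-retinal, was at 3.52, 7.52, 6.36 and 7.69 FPKM in La Quinta bulls Agg_8312, Agg_8314, Agg_8320 and Agg_8324 and at 1.73 to 3.20 FPKM in Montealto (log2 fold change 1.16 ± 0.29, SE; limma, adjusted p = 0.86). RGS4, which shortens G protein signals in cortical neurons, was at 33.7 to 46.3 FPKM and 23.5 to 31.0 FPKM. TAFA2, a secreted neurokine, was at 1.95 to 3.26 FPKM and 0.525 to 1.87 FPKM. For both, the adjusted p was 0.949 (limma). Their Wagyu medians, 44.8 FPKM for RGS4 and 2.57 FPKM for TAFA2, were closer to La Quinta than to Montealto.

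Glucocorticoids are the steroid hormones of the stress response, and of 10 tested genes that respond to them 0 were called, while 2 had an unadjusted p under 0.05, both lower in La Quinta. MT1E, a metal-binding metallothionein, was at 0.523 to 0.943 FPKM in La Quinta and 1.16 to 2.15 FPKM in Montealto. PDK4, a kinase that turns off pyruvate oxidation, was at 1.13 to 2.31 FPKM and 2.40 to 4.25 FPKM, again without overlap. Both were under the Wagyu medians of 2.79 and 4.63 FPKM in all 8 Lidia bulls. FKBP5, a chaperone induced through the glucocorticoid receptor, was at 2.24 to 4.21 FPKM in La Quinta and 3.29 to 5.38 FPKM in Montealto, and SGK1, a kinase induced in the same way, at 6.97 to 11.6 FPKM and 8.24 to 14.2 FPKM. The farms overlapped in both. The median log2 fold change of the list was -0.24, with 2 members positive and 8 negative. The summed level was 87.8 to 117 FPKM in La Quinta and 98.6 to 119 FPKM in 3 Montealto bulls, against 275 FPKM in bull Agg_8165, of which MT2A, another metallothionein, gave 225 FPKM. Without this bull the median was -0.16, with 2 of 10 members still lower at an unadjusted p under 0.05, against 2.96% of all genes. Without it and La Quinta Agg_8324 the median was -0.19. In that setting 2 members were lower and 1 was higher, against 2.24% and 2.66% of all genes.

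Activity-dependent genes are switched on by neuronal firing, and 16 of their 18 tested members had negative log2 fold changes, with a median of -0.36. None was called, and 1 had an unadjusted p under 0.05. That was NR4A1, an orphan nuclear receptor, at 2.68, 5.0, 4.39 and 5.16 FPKM in La Quinta bulls Agg_8312, Agg_8314, Agg_8320 and Agg_8324 and at 9.82, 9.64, 5.23 and 10.04 FPKM in Montealto bulls Agg_8162, Agg_8165, Agg_8171 and Agg_8174 (log2 fold change -0.99 ± 0.27, SE; limma, adjusted p = 0.949). Its farms were separated by a narrow gap, Montealto Agg_8171 lying next to La Quinta Agg_8324. BDNF, a neurotrophin, was at 0.91 to 1.34 FPKM and 0.95 to 1.76 FPKM, and the phosphatase gene DUSP1 at 9.02 to 16.6 FPKM and 11.5 to 22.6 FPKM. In 14 of the 18 members, among them EGR2, EGR3, NPTX2, PTGS2 and VGF, the highest of the 8 values was that of Montealto Agg_8174, the bull labelled 4 years, and without this bull the median was -0.19 with 6 positive and 12 negative values. Without bull Agg_8165 there were 3 of 18 members lower at an unadjusted p under 0.05, against 2.96% of all genes, and without it and La Quinta Agg_8324 there were 4, against 2.24%. The median of the list was -0.32 and -0.37 in those settings.

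Each tested lipid synthesis gene overlapped between the farms apart from SCD, the desaturase that makes oleic acid, at 17.6 to 29.5 FPKM in La Quinta and 30.6 to 38.3 FPKM in Montealto (log2 fold change -0.66 ± 0.17, SE; limma, adjusted p = 0.939). All 4 Montealto bulls were above the 8 Wagyu bulls, which had 15.9 to 26.5 FPKM. Among those that overlapped were the sterol enzyme genes MSMO1 and DHCR7 and the pathway's regulator SREBF1. Of the 7 tested members SCD alone had an unadjusted p under 0.05, and their median log2 fold change was -0.04. The list's summed level was separate by a narrow gap, at 95.7 to 121 FPKM in La Quinta and 122 to 128 FPKM in Montealto. The nearest bulls were La Quinta Agg_8314 at 121.0 FPKM and Montealto Agg_8165 at 122.1 FPKM. This sum includes SCD, and the sum of the other members, each of which overlapped, was not tested. Without Montealto Agg_8165 the median was -0.01 and 2 of 7 members were lower at an unadjusted p under 0.05, against 2.96% of all genes.

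All tested markers of excitatory, inhibitory and striatal neurons overlapped between the farms. Of 6 excitatory markers, NRN1, a membrane-anchored neurite growth factor, had an unadjusted p under 0.05, at 20.9 to 31.0 FPKM in La Quinta and 17.0 to 22.8 FPKM in Montealto, with overlap. NEUROD2 and NEUROD6, transcription factors of cortical projection neurons, had log2 fold changes of -0.08 and 0.18, within the spread between bulls. Of 8 inhibitory markers 0 had an unadjusted p under 0.05, and their summed level was 154 FPKM in Montealto Agg_8165 against 69.4 to 123 FPKM in the other 7 bulls. Without that bull their median log2 fold change was -0.10 in place of -0.21, and that of the excitatory markers 0.05 in place of 0.00. GAD2, which makes GABA, was at 2.85 to 4.21 FPKM in La Quinta and 1.71 to 6.27 FPKM in Montealto. The 3 striatal markers were DRD2, PPP1R1B and GNAL. The astrocyte markers gave 3 positive and 4 negative values with a median of -0.03, and 1 positive and 6 negative with a median of -0.09 without Montealto Agg_8165.

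Among microglial markers, TMEM119, a membrane protein of resident microglia, was at 0.06 to 0.12 FPKM in La Quinta and 0.15 to 0.82 FPKM in Montealto (log2 fold change -1.38 ± 0.38, SE; limma, adjusted p = 0.949). The farms did not overlap, and the Wagyu bulls had 0.02 to 0.09 FPKM. These levels are low, with 3.5 to 5.2 estimated fragments per La Quinta bull and 6.9 to 56.5 per Montealto bull. The La Quinta mean of 0.089 FPKM was under the minimum mean of 0.1 FPKM set for testing over the 8 bulls. AIF1 and CD68, markers of microglia and macrophages, were at 6.0 to 8.28 FPKM and 1.00 to 1.30 FPKM in La Quinta and at 7.93 to 21.8 FPKM and 1.28 to 1.43 FPKM in Montealto. CX3CR1, the fractalkine receptor of microglia, overlapped between the farms. Of the 8 tested members 1 had an unadjusted p under 0.05 and 0 were called. Their median log2 fold change was -0.15, with 3 members positive (CX3CR1, C3 and CD14) and 5 negative, and without Montealto Agg_8165 it was -0.15 with 1 positive and 7 negative.

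Leptomeningeal fibroblast genes, which mark the inner meninges on the cortical surface, spread widely within each farm. All 16 tested markers had positive log2 fold changes, with a median of 0.65, but 0 had an unadjusted p under 0.05. Their summed level was 22, 93.6, 128 and 118 FPKM in La Quinta bulls Agg_8312, Agg_8314, Agg_8320 and Agg_8324 and 162, 20, 30.3 and 43.8 FPKM in Montealto bulls Agg_8162, Agg_8165, Agg_8171 and Agg_8174. The high bulls were thus 3 from La Quinta and 1 from Montealto, and the highest of all was Montealto Agg_8162. DCN, a collagen-binding proteoglycan, was at 6.54 to 18.1 FPKM in La Quinta and 5.67 to 21.2 FPKM in Montealto, and the growth factor IGF2 at 3.60 to 30.9 FPKM and 4.65 to 31.7 FPKM. Without bull Agg_8165 the median of the list was 0.26, and without it and La Quinta Agg_8324 it was 0.08, with 12 positive and 4 negative values. With the summed markers as a covariate 6 genes were called, all among the 7, TTR being the one lost. The erythroid genes HBB, GYPC and EPOR overlapped between the farms.

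**Figure D4:**
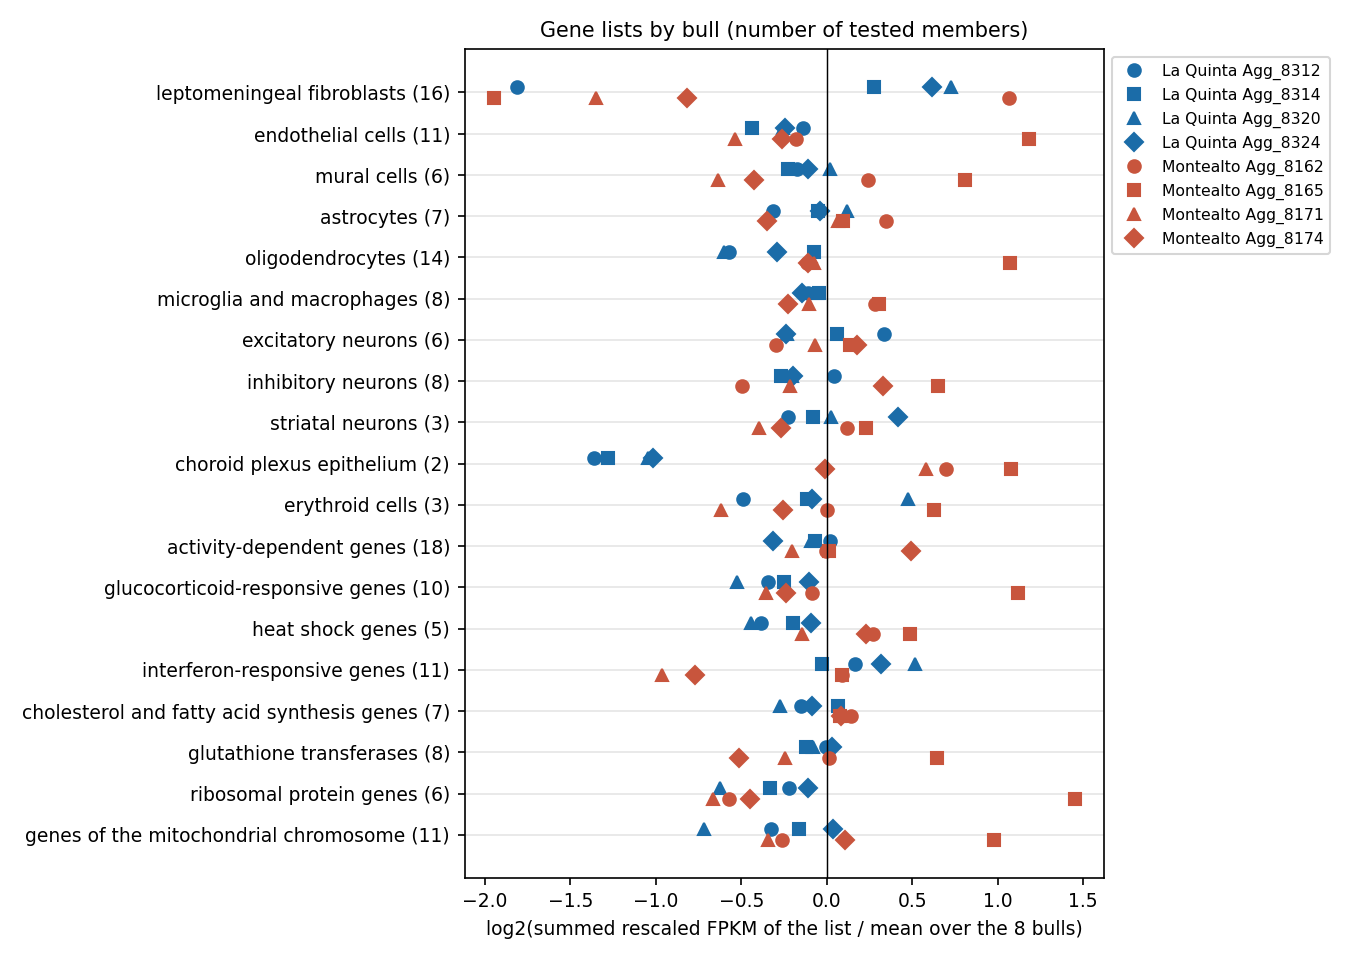
Summed rescaled FPKM of each gene list in each bull, as log2 of its ratio to the mean over the 8 bulls, with La Quinta in blue and Montealto in red and 1 marker shape per bull within a farm. Numbers in brackets are tested members. Montealto Agg_8165 lies far to the right for endothelial, oligodendrocyte, ribosomal protein and mitochondrial genes, while the leptomeningeal list spreads widely in both farms.

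Genes of the mitochondrial chromosome and ribosomal protein genes showed the difference of Montealto Agg_8165 from the rest. Of 37 mitochondrial genes 11 passed the minimum level, 10 of them with negative log2 fold changes, and 0 had an unadjusted p under 0.05. RPS28, a protein of the small ribosomal subunit, was at 265 to 425 FPKM in La Quinta and 301 to 329 FPKM in 3 Montealto bulls, against 1757 FPKM in bull Agg_8165. RPS27 and RPL39 behaved alike, at 500.0 and 109 FPKM in bull Agg_8165 and at most 214 and 49.9 FPKM in the other 7. Without bull Agg_8165 all 6 tested ribosomal protein genes had positive log2 fold changes, with a median of 0.26, in place of negative ones. The part of this bull's RNA or tissue make-up in the values was not tested.

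Genes from the study's list of breed differences were also counted between the farms. Of 883 tested genes listed as higher in Lidia, 3 were called, GSTA3 upward and TTR and ENSBTAG00000050311 downward, and 22 higher (2.49%) and 44 lower genes (4.98%) had an unadjusted p under 0.05, against 1.98% and 2.12% of all genes. Their median log2 fold change was -0.05. Of 271 tested genes listed as lower in Lidia, 0 were called, and 4 higher (1.48%) and 11 lower genes (4.06%) had an unadjusted p under 0.05. Since that list was chosen on these bulls, these counts describe the list and are no independent evidence.

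The Wagyu bulls gave a further reference for the 585 genes with separate farms. On a common scale their median was nearer to the La Quinta mean in 386 of these genes (66%) and nearer to Montealto in 199, against 59.5% nearer to La Quinta among all tested genes. With Montealto Agg_8165 left out of its farm's mean, 350 of the 585 (59.8%) were nearer to La Quinta. The share of all tested genes without that bull was not computed, so 59.8% cannot be set against 59.5%. All 8 Wagyu bulls lay on one side of the La Quinta bulls, but not of the Montealto bulls, in 49 genes, as for GSTA3 and AK8. The reverse held in 73 genes, as for EPPK1 and HSPA1A, and in 4 genes the Wagyu bulls were apart from both farms. In the other 459 genes the Wagyu bulls lay wholly on one side of neither farm. Among all 16546 tested genes the matching counts were 345 (2.09%) for La Quinta, 340 (2.05%) for Montealto and 109 (0.659%) for both, against 8.38%, 12.5% and 0.684% of the 585 genes. The 585 genes were chosen for separate farms, which can by itself raise the shares for a single farm. The higher shares are therefore no separate evidence.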

How the data were processed

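PFC RNA of 16 bulls was sequenced from stranded mRNA libraries as paired-end reads, 1 library per animal. The authors mapped the reads with STAR 2.7.3a to ARS-UCD 1.2, handled alignments with SAMtools 0.1.18 and estimated transcript abundance with Cufflinks 2.2.1, per the submitters' processing notes and the study's methods. The deposited value used here is the FPKM of each transcript, which the authors scaled to each animal's own fragments and not between animals. The deposited files carry it, with the coverage, as text in the attribute column of each transcript line. The files hold no read counts, so precision rests on the spread between bulls. The limma p-values set the farm difference of a gene against that spread, smoothed over genes of like level.

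FPKM was summed per gene, and each of the 8 Lidia bulls was rescaled by the median of ratios over the 16493 genes above 0 in all 8. Wagyu bulls were put on the same scale for description only and did not enter the fit. Testing was limited to genes averaging 0.1 FPKM or more and used log2(FPKM + 0.1), which understates the change of low genes, with limma 3.58.1 in R 4.3.3 (variance trend, Benjamini-Hochberg adjustment). Calls required an adjusted p no higher than 0.05 together with a log2 fold change of 0.1 or more in either direction. Values per bull were compared by exact permutation. Fragments were estimated as coverage divided by FPKM at 200 bases each. The fitting code was tested on simulated data. There, a log2 change of 1 was called in 38.8% of the genes given it, and a change of 2 in 80.6%.

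Symbols came from the positions in the study's supplementary list: of 1197 entries, 1159 shared start and end with a gene here, 109 of them in a locus of several genes. Genes were named if called, if they had a symbol, separate farms and the smallest p (up to 12 per direction), or if they were the called members or the 3 smallest p of a list; others are given as list examples and were chosen after their values were seen. The members, lists and rules were chosen with earlier results of these data known. Alternatives were FPKM as deposited, upper-quartile rescaling, other pseudocounts and filters, no variance trend, array weights, limma-voom, a leptomeningeal covariate, a stricter threshold and leaving out each bull; leaving out 2 bulls together and a robust eBayes step were added after seeing the data. Breed differences were not tested here. The study's list of them nonetheless supplied the symbols, and so limited which genes could be named or enter a list by symbol.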

Additional observations from a re-analysis of the deposited data

Results flagged for a closer look

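Within a farm of 4 bulls, the gap of a bull to the nearest other bull was divided by the farm's whole range. Gap and range were taken on the log2 scale used for testing, and not on the FPKM printed below. A bull was singled out where this share of the range was over Dixon's critical value for 4 values. The shares in brackets are therefore on the log2 scale, and the rule was not applied to FPKM. Among 136 groups of a gene and a farm checked, 10 met this rule. Its critical value is set for about 1 in 20 independent groups. These groups share bulls, and many of the genes were chosen by their values, so the count cannot be set against that rate. Montealto Agg_8165 accounted for 4 of them, all with the highest value: SOX10 at 15.5 FPKM against 7.72 to 8.53 in the other Montealto bulls (0.858 of the range), OLIG1 at 53.5 against 23.1 to 26.6 FPKM (0.831), RPS28 at 1757 against 301 to 329 FPKM (0.95) and RPL39 at 109 against 34.8 to 36.7 FPKM (0.953). In Montealto Agg_8162, MX1 was at 5.38 FPKM against 1.46 to 1.73 FPKM (0.871). Montealto Agg_8171 had the low value of NR4A1, at 5.23 against 9.64 to 10.04 FPKM (0.936), and Montealto Agg_8174 that of RGR, at 1.73 against 2.93 to 3.20 FPKM (0.856).

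In La Quinta each such gene pointed to a different bull. OPALIN was at 9.03 FPKM in Agg_8314 against 5.58 to 6.04 FPKM (0.837), and OTOF at 2.66 FPKM in Agg_8320 against 2.25 to 2.27 FPKM (0.94). SOX17, an endothelial transcription factor, was at 1.04 FPKM in Agg_8312 against 0.775 to 0.81 FPKM (0.85). The OPALIN and OTOF values of these bulls stayed below every Montealto bull.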

How the results depend on the processing

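Of the alternatives, those with FPKM as deposited, upper-quartile rescaling, a pseudocount of 0.01, no filter, no variance trend, a leptomeningeal covariate, an adjusted p of at most 0.01 and the robust eBayes step kept the count of called genes within 1.5 times of 7, although FPKM as deposited gave 5 higher calls in place of 2. A pseudocount of 1 gave 3 (1 higher, 2 lower), a mean FPKM of at least 1 gave 3 (1 lower), array weights gave 24 (10 higher, 14 lower) and limma-voom gave 0 in either direction, with 698 genes at an unadjusted p under 0.05. Without La Quinta Agg_8324 and Montealto Agg_8165 together, a setting chosen after seeing the data, there were 13 (5 higher, 8 lower). Leaving out 1 bull gave 2 to 9 calls, 1 to 4 higher and 1 to 6 lower. Called transcripts were 1 with a pseudocount of 1, 3 with a mean FPKM of at least 1, 2 with no filter, 0 under the stricter adjusted p of 0.01, and 0 to 16 when 1 bull was left out.

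Some log2 fold changes of list members that had not passed the threshold changed sign. On the FPKM as deposited, where all genes shift upward, they became 0.08 for HEPACAM, 0.13 for GFAP, 0.17 for MLC1, 0.08 for CD68, 0.27 for NEUROD2, 0.16 for GNAL, 0.21 for GYPC, 0.07 for DHCR7, 0.22 for MSMO1, 0.19 for RPS27 and 0.2 for RPL39. Array weights gave 0.21 for GYPC, 0.22 for RPS27, 0.2 for RPL39 and 0 for EPOR. The leptomeningeal covariate gave 0.05 for NEUROD2 and 0.01 for RPL39. Without Agg_8324 and Agg_8165 the values were 0.07 for GYPC, 0.01 for RPS28, 0.19 for RPS27 and 0.18 for RPL39. Leaving out 1 bull moved NEUROD6 between 0 and 0.35, NEUROD2 between -0.23 and 0.05, GYPC between -0.36 and 0.12, RPS28 between -0.73 and 0.12, RPS27 between -0.35 and 0.22 and RPL39 between -0.3 and 0.25. The farm difference in fragments ranged from -6.14 to 0.95 M and that in genes above 1 FPKM from -192 to 30.6 when 1 bull was left out, the latter being 644 on the FPKM as deposited. No called gene changed sign, and the cause of the other changes was not tested. No paired analysis was possible because the farms share no replicate numbers. Without read counts, depth limits the low and short transcripts most, as the few estimated fragments behind them show.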
